A study of Mus musculus with 8 samples.

Results

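Potassium channel subunits are the genes whose array symbol begins with Kcn and ends in a family letter and a number. The arrays held probes for 92 such genes, each read from its brightest probe by the mean over the 8 arrays. Of these, 88 were well above background, the scanner software's call of signal over local background, on at least 1 array and are described here, among 31071 of 34541 named genes that met the same condition. The other 4, Kcne1, Kcnmb1, Kcnj1 and Kcng3, were not well above background on any array. The choice used symbols and detection alone, and no difference between groups.

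The study set Activin/Nodal signaling beside retinal progenitor specification in mouse embryonic stem cells, and each of its 8 groups was measured on 1 array. Of these, 4 groups came from K/l-EB5 cells, a male 129/Ola line that carries GFP at Rax, the gene of an eye field transcription factor. These cultures received the Wnt pathway inhibitor IWR-1-endo at 5 µM from day 3 and, 12 hours later, either activin A at 10 ng/ml or SAG, a Sonic Hedgehog pathway agonist, at 100 nM. At day 10 cells with RAX::GFP (RAX-positive) were sorted from cells without it (RAX-negative). The fifth culture, called Wi control, was a different male 129/Ola line, E14Tg2A, with the inhibitor alone, also at day 10, and its labels name no sort. Cortex, diencephalon/hypothalamus and eye came from 3 Sv129s6 embryos of mixed sex at embryonic day 12.5. All 5 cultures therefore shared the Wnt inhibitor, and there was no untreated culture. RNA of 3 sets of experiments was pooled for each array, so a difference between 2 arrays has no replicate check.

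Levels are given as log2 signal relative to the 75th percentile of the array, and they are compared between arrays for 1 probe, never between probes. Between 59.5% of spots, for RAX-negative cells after activin, and 79.3%, for RAX-positive cells after activin, were well above background. As a check of the sort, Rax read 5.67 and 5.66 in the RAX-positive cells after activin and SAG, and 2.50 and 3.27 in the RAX-negative cells. In all, 7 arrays shared 1 slide and the Wi control was alone on another. A pair of numbers in the array barcode is read here as slide column and slide position, names that the barcode itself does not give. The RAX-positive arrays lay in a different slide column from the RAX-negative arrays, so gate and column cannot be told apart. Both activin arrays lay at position 1 and both SAG arrays at position 2, so added factor and position cannot be told apart. Cortex lay in the column of the RAX-negative arrays, and diencephalon/hypothalamus and eye in that of the RAX-positive arrays. In bulk RNA, fewer cells of a type and less RNA per cell cannot be told apart either.

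Potassium channels let potassium leave the cell and so pull the membrane potential down. Voltage-gated channels (Kcna to Kcnv) open on depolarization and shape action potentials, inward rectifiers (Kcnj) hold the resting potential and include channels gated by G proteins or ATP, and two-pore-domain channels (Kcnk) carry a background leak. Calcium- and sodium-activated channels (Kcnma, Kcnn, Kcnt) couple these ions to the membrane potential, and accessory subunits (Kcnab, Kcne, Kcnip, Kcnmb) alter the gating or traffic of a pore. Kcnu is counted with the calcium- and sodium-activated channels by symbol alone, without a claim that these ions gate it. In brain and eye such channels are known from neurons, glia, vessel wall cells and epithelia.

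Promoter windows from RefSeq (build GRCm38.p6) were found by symbol for 64 of the 88 members. In the 250 bases before the transcript start, the median GC content was 58.8% for members and 52.4% for all 27025 genes of that table. The GC box GGGCGG, searched on both strands, was found in 39 of 64 members (60.9%) against 35.4% of all genes. The TATA box TATAAA was found in 3 members (4.7%) against 14.3%, the CCAAT box CCAAT in 35.9% against 37.5%, and the E-box CAGCTG in 23.4% against 14.7%. Each motif was searched on both strands. No motif contains another, and overlapping matches were each counted. The 7 windows given here belong to the members that differed the same way between activin and SAG in both sorted fractions under all 6 alternative settings, and they are shown so that the promoters of members that moved together can be read side by side. Capitals mark GC boxes and CCAAT boxes, as read on the gene's strand or its complement. Where a gene had 2 windows (Kcnk10), the one listed earlier is shown.
Kcnc1, chr7:46396218-46396467, plus strand: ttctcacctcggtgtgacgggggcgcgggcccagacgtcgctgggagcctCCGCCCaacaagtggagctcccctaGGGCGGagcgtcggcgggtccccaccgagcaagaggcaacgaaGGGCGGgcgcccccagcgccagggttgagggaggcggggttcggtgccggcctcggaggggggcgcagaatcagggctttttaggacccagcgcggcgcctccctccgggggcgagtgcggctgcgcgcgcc
Kcnd2, chr6:21215096-21215345, plus strand: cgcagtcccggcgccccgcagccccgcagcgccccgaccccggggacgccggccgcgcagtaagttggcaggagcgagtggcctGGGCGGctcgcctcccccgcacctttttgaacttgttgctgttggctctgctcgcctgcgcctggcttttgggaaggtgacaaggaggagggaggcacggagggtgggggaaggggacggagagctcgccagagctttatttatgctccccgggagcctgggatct
Kcnh8, chr17:52602459-52602708, plus strand: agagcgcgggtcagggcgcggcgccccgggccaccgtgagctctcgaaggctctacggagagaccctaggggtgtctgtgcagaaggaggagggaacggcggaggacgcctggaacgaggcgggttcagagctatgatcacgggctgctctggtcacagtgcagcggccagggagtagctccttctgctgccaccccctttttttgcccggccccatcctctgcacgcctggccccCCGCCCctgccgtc
Kcnk10, chr12:98578214-98578463, minus strand: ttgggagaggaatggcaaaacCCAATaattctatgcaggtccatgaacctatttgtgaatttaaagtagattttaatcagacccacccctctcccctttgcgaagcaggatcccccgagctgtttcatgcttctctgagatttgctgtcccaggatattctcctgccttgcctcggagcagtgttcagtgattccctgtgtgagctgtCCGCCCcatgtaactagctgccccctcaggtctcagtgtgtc
Kcnma1, chr14:24004206-24004455, minus strand: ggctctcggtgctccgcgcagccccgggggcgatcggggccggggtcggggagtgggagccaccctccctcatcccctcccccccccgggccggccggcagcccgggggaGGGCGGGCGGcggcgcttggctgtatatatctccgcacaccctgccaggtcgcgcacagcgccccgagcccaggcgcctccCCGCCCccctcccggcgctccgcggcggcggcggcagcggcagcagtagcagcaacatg
Kcnj12, chr11:61065554-61065803, plus strand: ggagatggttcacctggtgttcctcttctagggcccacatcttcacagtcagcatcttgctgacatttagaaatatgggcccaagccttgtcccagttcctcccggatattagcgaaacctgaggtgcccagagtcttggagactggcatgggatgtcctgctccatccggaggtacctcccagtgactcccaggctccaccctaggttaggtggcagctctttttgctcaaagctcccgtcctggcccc
Kcnk1, chr8:125994852-125995101, plus strand: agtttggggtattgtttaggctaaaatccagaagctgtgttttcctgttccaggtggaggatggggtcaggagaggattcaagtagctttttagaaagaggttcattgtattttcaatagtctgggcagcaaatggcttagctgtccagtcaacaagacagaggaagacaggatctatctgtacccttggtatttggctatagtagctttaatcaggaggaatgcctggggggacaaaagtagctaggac
The 5 windows shown of members that were lower after activin each held a GC box, 3 of them in Kcnc1 and 3 in Kcnma1, of which a pair in Kcnma1 overlap. The other window of Kcnk10, not shown, held none of the 4 motifs. The windows of Kcnj12 and Kcnk1, which were higher after activin, held none of the 4 motifs. Over all members with a window, the GC box was found in 5 of 8 that were lower (62.5%) and 2 of 6 that were higher (33.3%) after activin in both fractions. The share in the lower members was near the 60.9% of all members with a window. A match describes these letters only.

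Detection differed between families, and the median member ranged more widely over the arrays than the median gene. Well above background on all 8 arrays were 22 of 39 voltage-gated members, 6 of 14 inward rectifiers, 8 of 14 two-pore-domain channels, 6 of 8 calcium- and sodium-activated channels and 4 of 13 accessory subunits, together 52.3% of members against 66.0% of all genes kept. The median range of a member over the 8 arrays was 3.34 log2 against 2.01 for all genes kept, and 84.1% of members spanned at least 2 log2 against 50.3%. With spots below background set to the lowest level well above it, the medians were 2.76 and 1.86, and among genes well above background on all 8 arrays (46 members) 2.69 and 1.51. On measured levels, inward rectifiers had a median range of 4.51 and calcium- and sodium-activated channels one of 2.72. Detection was lowest in RAX-negative cells after activin, with 56 members well above background (63.6%), and highest in eye, with 80 (90.9%). Over all genes kept the shares on these arrays were 72.6% and 87.3%. The first was likewise the lowest of the 8 arrays, while the highest was RAX-positive cells after activin, at 91.7%. Kcnmb3, a BK channel subunit, and Kcnk18, a TRESK leak channel, were well above background on 1 array alone, that of RAX-positive cells after activin, which also had the most spots above background.

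**Figure D1:**
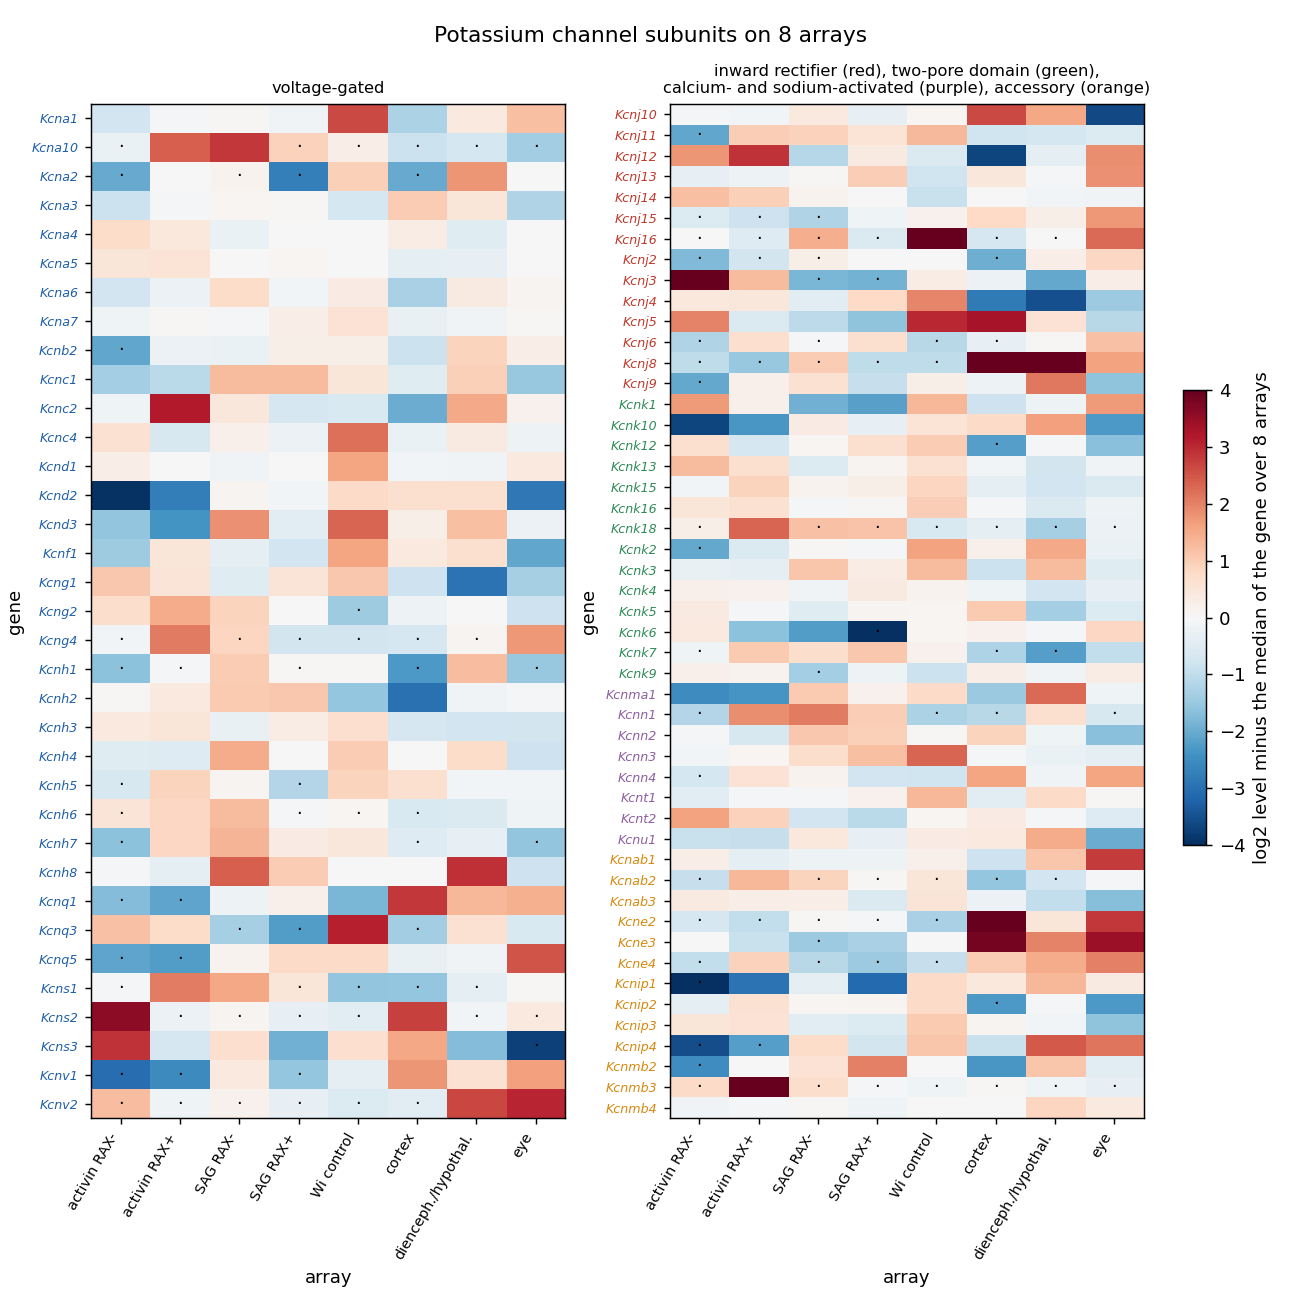
Heat map of 84 members (rows, symbols coloured by family) on the 8 arrays (columns). Colour is the log2 level minus the median of that gene over the 8 arrays, and a dot marks a spot not well above background. RAX-negative and RAX-positive cells after activin share low Kcnd2, Kcnk10, Kcnma1 and Kcnip4, and cortex has the highest Kcnj10 and Kcne2.

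Some members hardly moved. Kcna4, an A-type voltage-gated channel, kept within a range of 1.21 log2, from 2.79 in diencephalon/hypothalamus to 4.00 in RAX-negative cells after activin. Kcna7 ranged over 0.89 and Kcnmb4, a BK subunit of neurons, over 1.05, and their other probes over 1.27 and 1.38. Kcna5 ranged over 0.96 by its brightest probe and over 3.19 by the other, and Kcnk4, a mechanosensitive leak channel, over 1.14 and 2.95, so their probes disagree. These were singled out after their values were seen.

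After activin, 11 members were lower than after SAG in both sorted fractions, Kcnd2, Kcnk10 and Kcnma1 among them, and 7 were higher, Kcnj3 and Kcnk1 among them. In RAX-negative cells 23 of 75 members detected in either array were lower after activin (30.7%) and 14 were higher (18.7%), where called means at least a 2-fold difference with the brighter array well above background. The same rule called 14.8% of all genes lower and 13.0% higher. In RAX-positive cells 15 of 81 members were lower (18.5%) and 23 higher (28.4%), against 6.20% and 18.7% of all genes. Lower in both fractions were 11 of 72 members (15.3%) against 4.04% of genes, and higher in both were 7 (9.7%) against 5.18%. The 2 comparisons share no array. Both fractions were sorted from the activin or SAG cultures, however, and slide position differs with the factor in both. Agreement between the fractions is therefore no independent repeat.

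Among the 11 were the pores of fast, delayed and A-type currents. Kcnd2, the pore of the somatodendritic A-type current (mm9 probe at chr6:21679569-21679628), read -3.64 in RAX-negative and -2.46 in RAX-positive cells after activin, and 0.43 and 0.20 after SAG. It was thus 16.8-fold lower in RAX-negative and 6.34-fold lower in RAX-positive cells, with a reading error of 0.23 and 0.21 log2 that covers the reading of the array only. Kcnd3, its close relative, read -0.99 and -1.82 after activin and 2.42 and 0.13 after SAG. Kcnc1, a fast delayed rectifier of rapidly firing neurons, read -1.69 and -1.40 after activin and 0.93 and 0.94 after SAG. Both activin arrays lay below both SAG arrays for each of these genes. Kcnip4, a calcium-binding partner of the A-type pores, was not well above background after activin and read -2.84 and -4.28 after SAG, at least 5.91-fold and 2.81-fold higher there.

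Kcnq1, a subunit of epithelia and heart, was not well above background after activin and read -4.18 and -3.76 after SAG, at least 2.34-fold and 4.52-fold higher. This pair of calls was kept under 1 of 6 alternative settings. Kcnh8, an ELK channel of neurons, read -2.94 and -3.29 after activin against -0.49 and -1.88 after SAG.

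Calcium-activated and leak channels made up most of the others. Kcnma1, the BK channel pore, read -3.77 and -3.60 after activin and -0.21 and -1.08 after SAG, so it was 11.8-fold and 5.72-fold lower by its brightest probe. Over its 4 probes the log2 difference ran from -3.56 to -0.94 in RAX-negative and from -3.22 to -1.32 in RAX-positive cells. Kcnmb2, a BK subunit, was lower by at least 6.39-fold in RAX-negative and by 3.99-fold in RAX-positive cells. Kcnn2, an SK channel, was 2.16-fold and 3.04-fold lower. Kcnk10, a TREK leak channel opened by stretch and lipids, read -2.50 and -1.15 after activin and 1.49 and 0.86 after SAG, a fall of 15.9-fold and 4.02-fold. The count lower in both fractions was 8 to 12 under the 6 alternatives.

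The other 7 members ran the other way in both fractions, 3 of them inward rectifiers. Kcnj3, a G protein-gated (GIRK) subunit of heart and brain, read -0.46 in RAX-negative and -3.43 in RAX-positive cells after activin and was not well above background after SAG, a difference of at least 31.5-fold and 8.85-fold by its brightest probe. Over its 2 probes the measured log2 difference ran from 2.46 to 6.05 in RAX-negative and from 1.61 to 3.15 in RAX-positive cells. Kcnj5, the GIRK subunit that pairs with it in heart, read -1.58 and -4.15 after activin and -4.63 and -5.17 after SAG, 8.28-fold and 2.03-fold higher. Kcnj12, a strong inward rectifier, read -0.20 and 0.90 after activin and -3.13 and -1.63 after SAG, 7.60-fold and 5.80-fold higher. Among the 4 sorted arrays both GIRK subunits were highest in RAX-negative cells after activin, and Kcnj12 in RAX-positive cells after activin. Kcnk1, a weak leak channel, was 12.5-fold and 5.24-fold higher, and Kcnk6, its close relative, 6.16-fold and at least 7.32-fold higher. The sodium-activated Kcnt2 (5.17-fold and 4.01-fold) and the silent subunit Kcns3 (4.74-fold and 2.40-fold) completed the group. Kcnj5 kept both calls under 2 of the 6 alternatives and Kcns3 under 3.

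**Figure D2:**
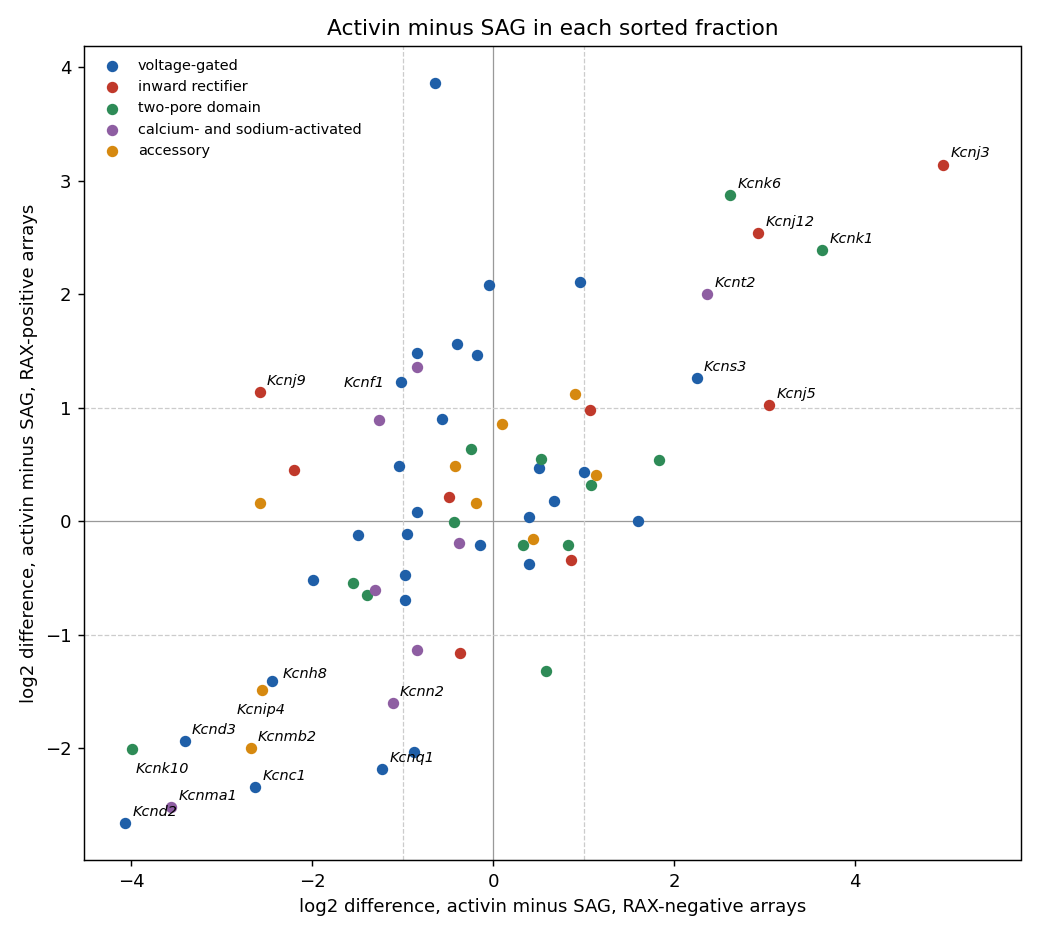
Each point is 1 of 68 members shown and detected in both comparisons: log2 difference activin minus SAG in RAX-negative cells (x) and RAX-positive cells (y), coloured by family, with the lower bound where 1 array was not well above background. Dashed lines mark 2-fold, and labelled members passed 2-fold on both axes: 10 at lower left, 7 at upper right and Kcnj9 and Kcnf1 at upper left.

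Neuron markers moved with these members. Of 12 genes of differentiating neurons, 10 were lower after activin in RAX-negative and 11 in RAX-positive cells, and 0 were higher. Their summed signal, in units of the 75th percentile, was 75.9 and 37.7 after activin against 236 and 107 after SAG, and all 12 were well above background on every array. Pluripotency genes ran the other way in RAX-negative cells, where 8 of 10 were higher after activin, with a summed signal of 102 against 7.69 after SAG. In RAX-positive cells 3 of 10 were higher and 1 lower. Muscle genes also ran the other way: 7 of 7 detected were higher after activin in RAX-negative cells and 3 of 7 in RAX-positive cells, with 0 lower and summed signals of 10.5 against 2.24 and 3.19 against 1.75. Pericyte and smooth muscle genes did so too, with 5 of 6 higher in RAX-negative and 3 of 6 in RAX-positive cells, and 0 lower. So did pigment cell genes, with 5 of 6 and 6 of 7 higher and 0 lower. The part of these lists in the channel differences, the rectifiers of heart and muscle included, was not tested. Of the partners of potassium channels and other channels and pumps of the membrane potential, 12 of 30 were lower and 5 higher after activin in RAX-negative cells, and 5 of 31 were lower and 7 higher in RAX-positive cells.

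Some differences between activin and SAG showed in 1 fraction. Kcnc2, a fast delayed rectifier like Kcnc1, read -0.13 in RAX-positive cells after activin and lay between -5.29 and -1.81 on the 7 other arrays. It was 14.6-fold higher after activin than after SAG in RAX-positive cells, while in RAX-negative cells it read -3.48 and -2.85. Kcnmb3 in RAX-positive cells was at least 8.36-fold higher after activin, with a reading error of 1.46 log2 owing to the dim SAG spot. Against 23 members higher after activin in RAX-positive cells, normexp background correction called 4 and the authors' deposited values 8, while the members lower there numbered 9 and 13. With quantile scaling the counts were 14 higher and 21 lower. Of all genes called in RAX-positive cells 75.1% were higher after activin, against 62.0% with median scaling, 52.8% with quantile scaling and 48.1% with the deposited values, and in RAX-negative cells 46.9% became 70.1% with median scaling. Kcnj9 and Kcnf1 were called higher in RAX-positive and lower in RAX-negative cells, 2.8% of members against 1.42% of all genes.

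Across the RAX gate the members moved differently after the 2 factors. After activin 13 of 77 members were higher in RAX-positive cells (16.9%) and 8 lower (10.4%), against 10.7% and 6.11% of all genes. After SAG 4 of 74 were higher (5.4%) and 17 lower (23.0%), against 4.17% and 10.6%. The 12 voltage-gated members that were lower after SAG were 35.3% of the 34 detected. With scaling by the array median, which moved the median difference of all genes after activin from 0.21 to -0.19, the activin counts became 6 higher and 15 lower. The authors' deposited values called 11 members lower after SAG and normexp 6. Of all genes called after SAG 28.3% were higher in RAX-positive cells, against 40.0% with median scaling and 40.8% with the deposited values.

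After both factors the gate divided 4 members the same way. Kcns3, a silent subunit that modifies Kcnb channels, read -0.82 in RAX-negative and -4.38 in RAX-positive cells after activin, and -3.06 and -5.65 after SAG. It was 11.8-fold and 5.99-fold lower in RAX-positive cells and kept both calls under all 6 alternatives. Kcnk6 was lower by 4.09-fold after activin and by at least 4.86-fold after SAG. Kcnmb2 was higher by at least 4.39-fold and by 2.74-fold, and Kcnj12 by 2.15-fold and 2.82-fold. Kcnk6 and Kcnmb2 kept both calls under 4 of the 6 alternatives and Kcnj12 under 3, losing them with median scaling, the authors' deposited values and normexp. Lower in both were thus 2 of 68 members (2.9%) against 2.56% of all genes, and higher in both 2 (2.9%) against 0.889%. Kcnc2, Kcnj9 and Kcnn1 were higher in RAX-positive cells with activin but lower with SAG, 4.4% of members against 1.43% of all genes. When gate and factor were fitted together in limma over the 4 sorted arrays, with Benjamini-Hochberg adjustment, none of 73 members passed an adjusted p of 0.05 in either direction, as for 0% of all genes higher and 0% lower. At an unadjusted limma p of 0.05 there were 2 members higher (2.7%) and 3 lower (4.1%), against 4.1% and 3.3% of all genes. Kcns3 differed by -3.07 (SE 0.40, limma adjusted p 0.51) and Kcnk6 by -2.16 (SE 0.29, limma adjusted p 0.51). The next members were Kcnmb2, Kcnj12 and Kcnb2 (a delayed rectifier) on the higher side, at 1.99, 1.30 and 1.18, and Kcnd3 on the lower side, at -1.56, with limma adjusted p between 0.579 and 0.716. Kcnj6, a brain GIRK subunit, was well above background in both RAX-positive and in neither RAX-negative array, so it entered the fit through the RAX-positive arrays alone and is given no value. With median scaling limma called Kcns3 and Kcnk6, at adjusted p 0.000131 and 0.0238. The gate fit left 1 residual degree of freedom, namely how far a gene's RAX difference with activin departed from that with SAG. Its SE and p values therefore do not measure variation among repeats, and these calls are no evidence of a repeatable difference.

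After activin alone, the G protein-gated and ATP-gated rectifiers divided. Kcnj3 read -0.46 in RAX-negative and -3.43 in RAX-positive cells, a fall of 7.86-fold, and Kcnj5 fell by 5.91-fold. Kcnj9, a brain GIRK subunit, was at least 4.52-fold higher in RAX-positive cells, and Kcnj11, the pore of the ATP-sensitive channel of neurons and beta cells, at least 4.81-fold. A further probe of Kcnj11 differed by -0.91. Kcnc2 had the widest rise, from -3.48 to -0.13, or 10.2-fold. In these RAX-negative cells 8 of 10 pluripotency genes were higher than in the RAX-positive cells and 0 lower, with a summed signal of 102 against 4.91, and 3 of 12 neuron genes were higher and 1 lower. Muscle genes were higher in 6 of 8 and lower in 1, with summed signals of 10.5 and 3.19. Mesenchyme genes were higher in 6 of 8 and lower in 0. The part of these lists was not tested.

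After SAG more members were lower than higher in RAX-positive cells. Kcnip1, a partner of A-type pores, was 6.67-fold lower by its brightest probe, and its other probe differed by 0.77. Kcnd3 was 4.89-fold lower. On the other side Kcnj4, a strong rectifier of forebrain neurons, was 2.34-fold and Kcng1, a silent subunit, 2.01-fold higher. Neuron genes were lower in 6 of 12 and higher in 0, and 18 of 31 partners and other channels were lower and 1 higher, and mesenchyme genes were lower in 7 of 8. The part of these lists was not tested.

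**Figure D3:**
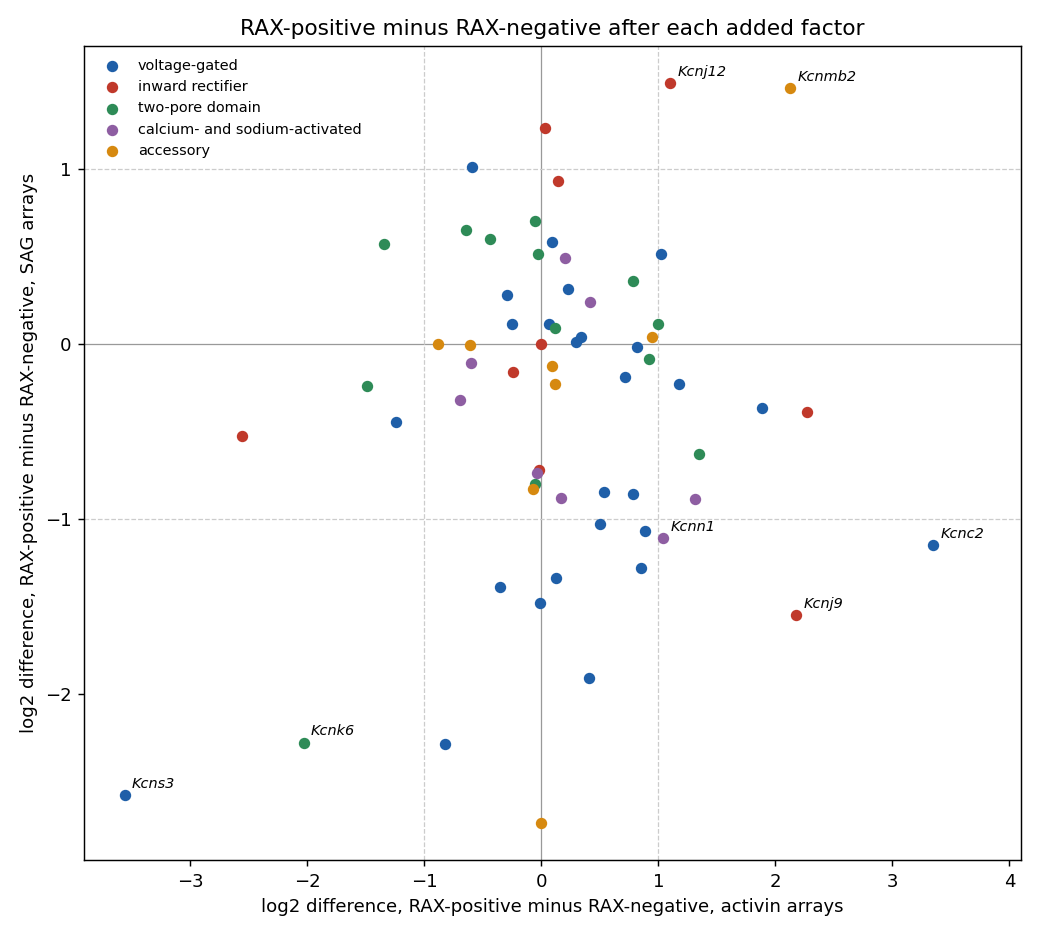
Each point is 1 of 64 members shown and detected in both comparisons: log2 difference RAX-positive minus RAX-negative after activin (x) and after SAG (y), coloured by family, with the lower bound where 1 array was not well above background. Labelled members passed 2-fold (dashed lines) on both axes. Kcns3 and Kcnk6 lie at lower left, Kcnj12 and Kcnmb2 at upper right, and Kcnc2, Kcnj9 and Kcnn1 at lower right.

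In the embryo the 3 tissues had different channel sets. Diencephalon/hypothalamus had 24 of 80 members higher than cortex (30.0%) and 13 lower (16.2%), against 10.2% and 9.04% of all genes. Eye had 17 of 82 higher than cortex (20.7%) and 19 lower (23.2%), against 12.5% and 7.78%. Against diencephalon/hypothalamus, eye had 16 of 84 higher (19.0%) and 29 lower (34.5%), against 11.2% and 8.11%. The 3 comparisons share arrays. Cortex lay in a different slide column, as read here from the barcode, from the other tissues, so tissue and column cannot be told apart in the comparisons with cortex. Eye lay at position 4 and the other tissues at position 3, so tissue and position cannot be told apart in the comparisons with eye. In diencephalon/hypothalamus 33.3% of voltage-gated members (12 of 36), 37.5% of calcium- and sodium-activated channels and 36.4% of accessory subunits were higher than in cortex, and 37.8%, 50.0% and 25.0% were higher than in eye. With median scaling, eye against cortex had 9 members higher, and the authors' deposited values called 10. Of all genes called, 61.6% were higher in eye than cortex and 53.1% in diencephalon/hypothalamus than cortex, against 26.4% and 28.6% with median scaling. For eye against diencephalon/hypothalamus 58.1% became 48.0%.

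Several members had their highest tissue level in diencephalon/hypothalamus. Kcnma1 read -2.75 in cortex, 1.00 in diencephalon/hypothalamus and -1.42 in eye, and Kcnh8 read -2.90, 0.03 and -3.70 in the same order. Kcnc2 read -5.29, -1.81 and -3.14, Kcnmb2 -5.62, -2.19 and -3.75, and Kcnip4 -4.45, -1.10 and -1.42. By their other probes the log2 difference between diencephalon/hypothalamus and cortex was 1.11 for Kcnmb2 and 2.14 for Kcnip4. Cortex was the lowest of the 3 for each of these genes except Kcnh8, which was lowest in eye. Kcnk10 and Kcnd2 were high in both brain tissues and low in eye, at 1.95, 2.81 and -1.12 for Kcnk10 and 0.95, 0.94 and -2.56 for Kcnd2. Of 12 neuron genes, 7 were higher in diencephalon/hypothalamus than in cortex and 0 lower, and 11 were lower in eye than in diencephalon/hypothalamus and 0 higher. Of the partners and other channels, 17 of 32 were higher and 1 lower in diencephalon/hypothalamus than in cortex.

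Several rectifiers ran against or across this order. Kcnj10, the rectifier of glia and radial cells that buffers potassium, read 0.92 in cortex, -0.16 in diencephalon/hypothalamus and -5.30 in eye, 74.8-fold and 35.1-fold lower in eye. The 5 cultures read between -2.02 and -1.30, above the eye and below both brain tissues. Kcnj12 read -5.66 in cortex, -2.33 in diencephalon/hypothalamus and -0.12 in eye, 46.7-fold higher in eye than in cortex, and its level of 0.90 in RAX-positive cells after activin was the highest of the 8 arrays. Kcnj5 read -0.28, -2.99 and -4.67, and Kcns3 -2.18, -5.45 and, not well above background in eye, at least 28.1-fold below cortex. Kcnj13, a rectifier of pigment epithelium and choroid plexus, read -0.22 in eye against -1.59 in cortex and -2.09 in diencephalon/hypothalamus. All 8 pigment cell genes and all 8 lens genes were higher in eye than in either brain tissue, as were all 8 muscle genes (summed signal 54.6 in eye, 1.12 in cortex and 1.84 in diencephalon/hypothalamus), and their part in Kcnj12 and Kcnj13 was not tested.

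Other members also differed between the tissues. Kcnab1, a beta subunit that speeds inactivation, read 0.01 in eye and -3.60 in cortex, 12.2-fold apart, and Kcnh2, the ERG channel, read -0.83 and -3.77, or 7.69-fold apart. In diencephalon/hypothalamus Kcnab1 read -1.66 and Kcnh2 -0.91, so Kcnh2 was low in cortex rather than high in eye alone. Kcnq5, of the M-current family, read -2.17 in eye, -4.98 in cortex and -4.83 in diencephalon/hypothalamus. Kcnk5, an acid-sensitive leak channel, was 5.31-fold lower in diencephalon/hypothalamus than in cortex. Kcne2, a subunit that gives the choroid plexus its potassium channel, read -0.80 in cortex, -5.83 in diencephalon/hypothalamus and -3.49 in eye, and was not well above background in any culture. Its range over the 8 arrays was at least 6.11 log2. Ttr, the transthyretin gene of choroid plexus and pigment epithelium, read 2.81, -4.70 and 0.55 in the same order of tissues. Ttr belongs to a list of 8 choroid plexus genes added after these values were seen. Of these, 6 were well above background in cortex and 7 in each of the others. Their summed signals were 16.3 in cortex, 17.2 in diencephalon/hypothalamus and 30.5 in eye. Of 7 detected in eye or cortex, 4 were higher in eye and 1, Ttr, was lower. Of 7 detected in diencephalon/hypothalamus or cortex, 1 was higher and 3 were lower than in cortex. The part of that tissue was not tested.

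**Figure D4:**
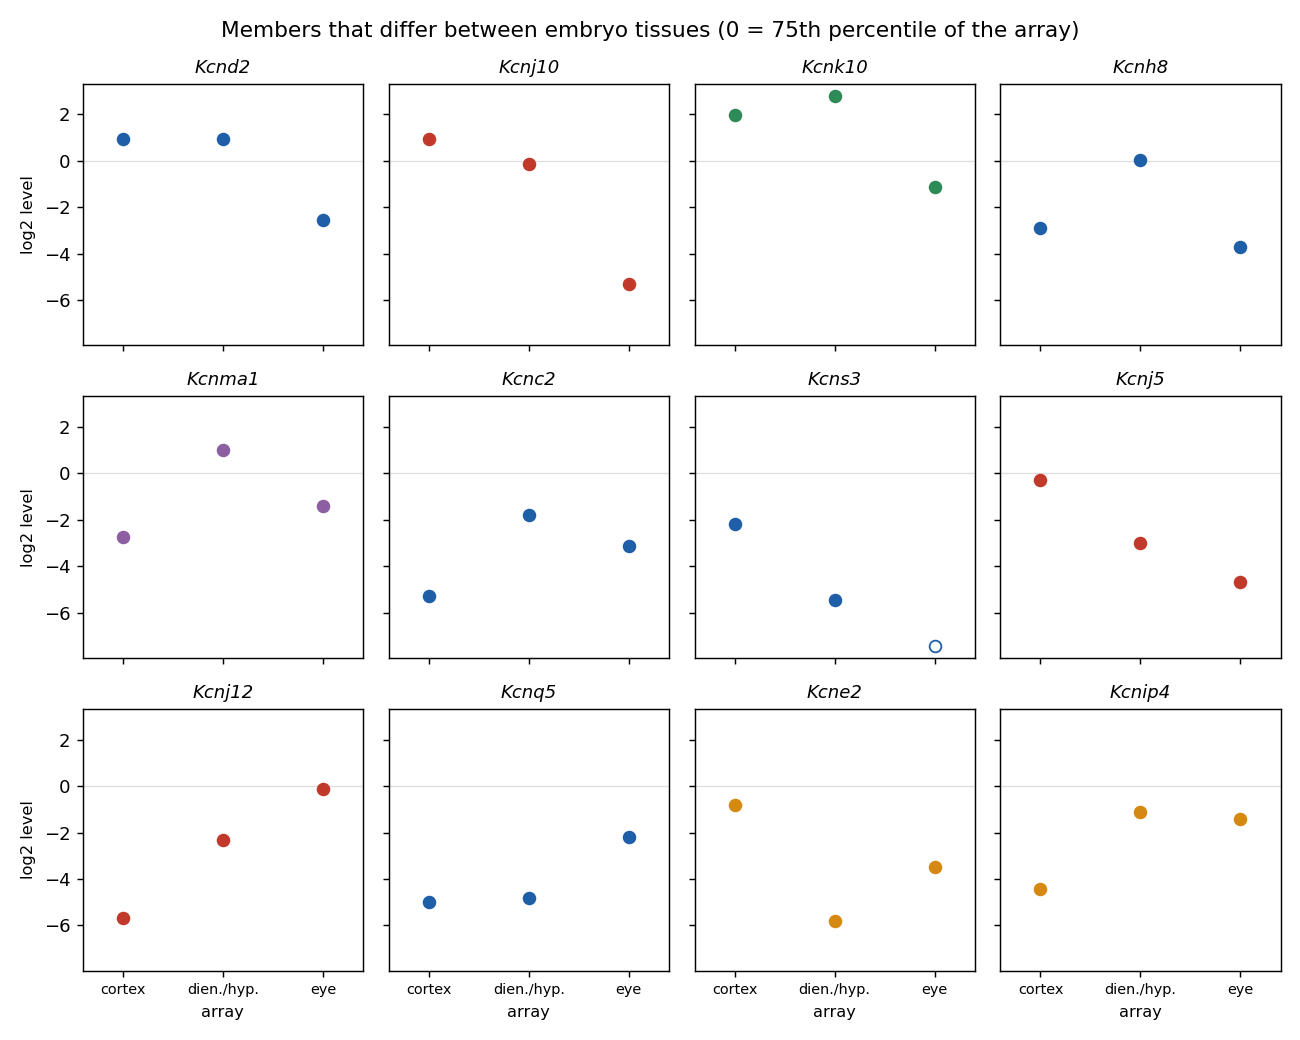
Log2 level (0 is the 75th percentile of the array) of 12 members on the 1 array each of cortex, diencephalon/hypothalamus and eye, coloured by family; an open point is not well above background. Kcnj10 falls from 0.92 in cortex to -5.30 in eye, Kcnj12 runs from -5.66 in cortex to -0.12 in eye, and panels are for reading across tissues, not between genes.

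Embryo tissue as a class was compared with culture over the 8 arrays. In limma on the 3 tissue and 5 culture arrays, with Benjamini-Hochberg adjustment over 27034 genes, 3 of 80 members were higher in tissue and 2 lower at an adjusted p of 0.05, against 1.42% and 1.47% of all genes tested. One of the higher members, Kcnj8, entered the fit through the tissue arrays alone, so its call is not evidence of a difference. The spread is that among different conditions, not among repeats. Kcne3, a subunit of epithelial channels (mm9 probe at chr7:107332867-107332926), read -0.44 in cortex, -2.29 in diencephalon/hypothalamus and -0.85 in eye. Its cultures read -4.29 and -5.18 after activin, -5.72 and -5.58 after SAG (RAX-negative given before RAX-positive) and -4.26 in the Wi control. The groups did not overlap for this member, which was named for its small p in this fit. Their means were -1.19 ± 0.97 (SD, n = 3) and -5.01 ± 0.70 (SD, n = 5), a difference of 3.81 (SE 0.53, limma adjusted p 0.0082). Without the cortex array the limma adjusted p was 0.0513, and without the eye array 0.0539.

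Kcnj8, the vascular ATP-sensitive channel pore of pericytes and smooth muscle, read -2.03, -2.46 and -4.99 in cortex, diencephalon/hypothalamus and eye and was not well above background in any culture. Its tissue mean of -3.16 was at least 7.87-fold above the cultures, whose measured mean was -7.31. The fitted difference lay between 1.34 and 4.58 over its 12 alternatives and the call was lost under 7 of them, and it could not be fitted without any of the tissues. Abcc9, the gene of its regulatory subunit, followed the same pattern at -0.80, -0.98 and -1.72 in the tissues, and was not well above background in any culture. Rgs5, a pericyte gene, read -0.48, -0.43 and -2.45 in tissues, -2.14 in the Wi control, and was not well above background in the sorted cells. Abcc9 and Rgs5 belong to a list of 8 pericyte and smooth muscle genes, of which 2 were higher in tissue by limma and 0 lower. Others of the list differed: Notch3 read 2.91 to 3.23 in tissues and 3.03 to 4.73 in cultures, and Tagln was highest in the Wi control, at 3.43.

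Kcnq1 was higher in tissue by 2.99 (SE 0.64, limma adjusted p 0.0478), at -1.15 in cortex, -2.64 in diencephalon/hypothalamus and -2.55 in eye against -6.08 to -3.76 in culture. Its call was lost under 13 of 15 alternatives, among them leaving out any array except SAG RAX-positive, with limma adjusted p up to 0.184. In the same limma fit 6 of 8 blood and microglia genes, 3 of 7 endothelial genes, 3 of 8 mesenchyme genes and 2 of 8 pericyte genes were higher in tissue, and 0 were lower. The summed signal of the blood list was 209 to 426 in tissues and 0.676 to 1.81 in cultures, and that of the mesenchyme list 50.7 to 114 and 1.72 to 13.1. Endothelial genes summed to 10.7 to 18.4 in tissues and 3.46 to 11.2 in cultures. Pericyte genes, which include smooth muscle genes, summed to 15.3 to 24.7 and 11.8 to 40.4. Their part in the 3 members was not tested.

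Kcnj4 and Kcnk7 were lower in tissue. Kcnj4 read -3.88, -4.57 and -2.51 in cortex, diencephalon/hypothalamus and eye, and its cultures read -0.62 and -0.60 after activin, -1.49 and -0.26 after SAG and 0.89 in the Wi control. The difference was -3.24 (SE 0.60, limma adjusted p 0.0281), and it lost the call without activin RAX-positive, cortex, diencephalon/hypothalamus or SAG RAX-positive, with limma adjusted p up to 0.124. Kcnk7, a leak channel subunit, was well above background in eye alone among tissues and differed by -2.04 (SE 0.41, limma adjusted p 0.0386). It lost the call under 9 of 15 alternatives, 6 of them with 1 array left out (all but activin RAX-negative and the Wi control), with limma adjusted p up to 0.405 with normexp. Kcne4 (2.20, SE 0.54) and Kcng1 (-2.24, SE 0.55) did not pass, with limma adjusted p of 0.0736 and 0.0746. At an unadjusted p of 0.05, limma had 9 members higher (11.2%) and 11 lower (13.8%), against 5.8% and 11.0% of all genes, and the median difference over all genes was -0.16.

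**Figure D5:**
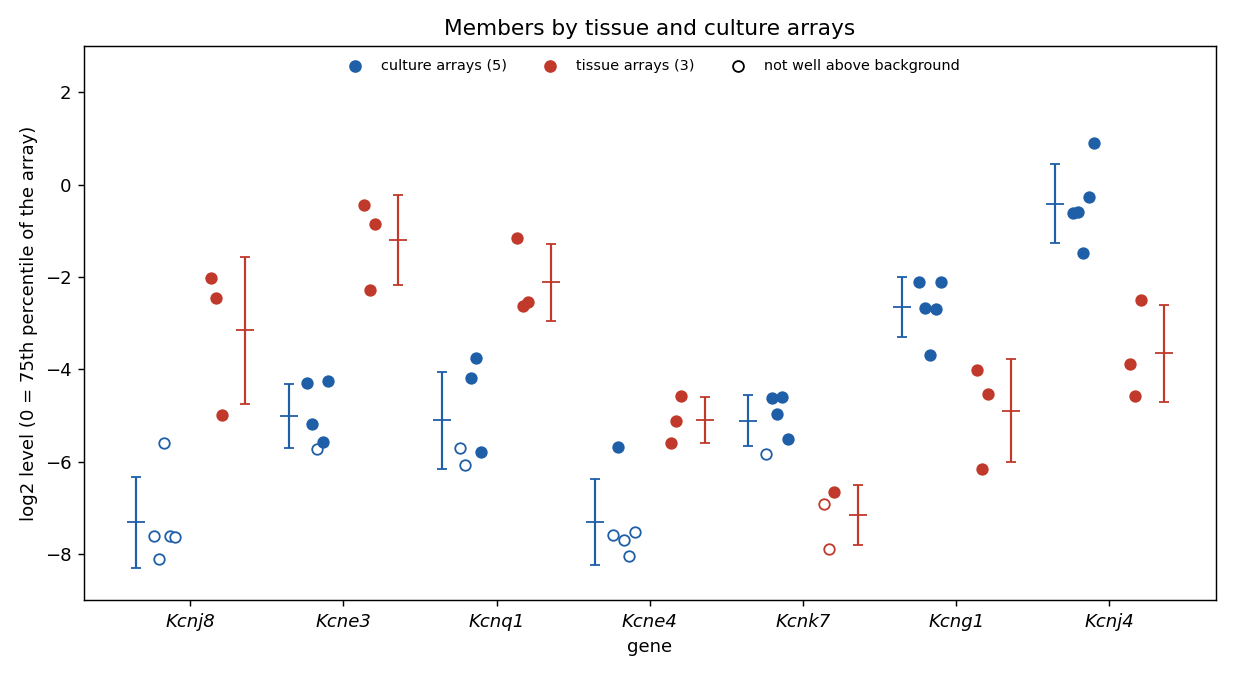
Log2 level (0 is the 75th percentile of the array) of 7 members among those with the smallest limma p in each direction, on the 5 culture arrays (blue) and 3 tissue arrays (red); bars are mean ± SD and open points are not well above background. Kcne3 reads -2.29 to -0.44 in tissues and -5.72 to -4.26 in cultures. The groups do not overlap for any of the 7, but these were chosen by p in this same comparison, so this is no separate evidence. For Kcne4 the gap is narrow, from -5.59 in cortex to -5.68 in RAX-positive cells after activin.

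The Wi control had the highest level of 23 of 88 members (26.1%), among them 12 voltage-gated ones, against 17.9% of all genes kept. Kcna1, a low-threshold channel of axons, read -1.13 there and -5.04 to -2.57 elsewhere. Kcnq3, an M-current subunit, read -2.51 there and at most -4.47 elsewhere. Kcnj16, a pH-sensitive rectifier, read -3.10 there, was well above background elsewhere in eye alone, at -5.34, and Kcnn3, an SK channel, read -0.77 against -3.46 to -1.90. These members were singled out after their values were seen. Neuron genes summed to 286 in the Wi control and 292 in diencephalon/hypothalamus, and pluripotency genes to 176, the highest of the 8 arrays. That sum rests largely on Dppa5a, which read 7.03 there. By list median, pluripotency genes read 2.06 in RAX-negative cells after activin and 2.11 in the Wi control. This culture differs from the sorted ones in line, sort, added factor and slide, which cannot be told apart.

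The remaining members are given by their role, chosen for description after their values were seen. Among voltage-gated pores, Kcna2, a low-threshold channel of axons that pairs with Kcna1, was well above background in 4 arrays, at -3.70 in diencephalon/hypothalamus, -4.52 in the Wi control, -5.45 in RAX-positive cells after activin and -5.51 in eye. Kcna3, known from lymphocytes, ran from -4.33 in eye to -2.11 in cortex. Kcna6 ran from -0.08 in cortex to 1.95 in RAX-negative cells after SAG, while its other probe that was well above background on all 8 arrays was highest in the Wi control. Kcnd1, the third A-type pore, read -0.79 and -1.05 after activin and -1.20 and -1.09 after SAG, less than 2-fold apart, and its highest level by the brightest probe was 0.50 in the Wi control, which 1 of its other probes does not share. Kcnc4 read -2.35 in the Wi control and -5.17 to -3.93 elsewhere.

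Silent subunits, which form channels only with a Kcnb pore, were often dim. Kcnv1 read -2.63 in cortex, -2.74 in eye and -3.79 in diencephalon/hypothalamus, -3.99 in RAX-negative cells after SAG and -4.79 in the Wi control, and was not well above background in the other 3 arrays. Kcnv2, which is needed in photoreceptors, was well above background in eye, at -4.84, and diencephalon/hypothalamus, at -5.20, and in none of the cultures. Kcns2 was well above background in RAX-negative cells after activin, at -4.12, and in cortex, at -4.95. Each of these was detected in a different set of arrays.

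The further Kcnh genes given here differed in pattern. Kcnh3 stayed between -2.25 and -0.79, with the 3 tissues at the low end, while Kcnh4 read 0.16 in RAX-negative cells after SAG and -2.17 to -0.30 elsewhere. Kcnh7, an ERG relative, was well above background in 5 arrays, the highest being RAX-negative cells after SAG at -4.37, but its other probe was highest in cortex, at -3.50, and read -7.47 in those cells, so its probes disagree. Among leak channels, Kcnk2, a TREK channel like Kcnk10, read -2.30 in the Wi control and -2.38 in diencephalon/hypothalamus and was not well above background in RAX-negative cells after activin. Kcnk3, an acid-sensitive TASK channel, read -2.60 in diencephalon/hypothalamus, -2.62 in the Wi control, -2.78 in RAX-negative cells after SAG and -4.74 to -3.58 elsewhere. Kcnk13 ran from -1.79 in diencephalon/hypothalamus to 0.21 in RAX-negative cells after activin.

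Among rectifiers, Kcnj2, the classical strong rectifier of heart and muscle, was well above background in 4 arrays, at -4.64 in eye, -5.19 in diencephalon/hypothalamus, -5.45 in RAX-positive cells after SAG and -5.49 in the Wi control. It was therefore not well above background in either fraction after activin, where its relative Kcnj12 read -0.20 and 0.90. Kcnj14 by its brightest probe was highest after activin, at -3.15 and -3.39, and read -5.26 to -4.22 elsewhere. Kcnj15 read -3.78 in eye and was not well above background in either activin fraction. Kcnn4, the intermediate-conductance channel of blood and epithelial cells, read -2.89 in both cortex and eye and -5.27 to -3.87 where detected elsewhere. The blood list summed to 407 in cortex and 426 in eye. In diencephalon/hypothalamus Kcnn4 read -4.59, within its range in the cultures, while the list still summed to 209. The part of the blood list was not tested. Kcnip3, a calcium-binding partner and repressor also called DREAM, read -0.21 in eye and 0.86 to 2.45 elsewhere by its brightest probe, while its other probe was lowest in RAX-negative cells after SAG.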

How the data were processed

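Total RNA, 50 ng for each group, was labelled with Cy3 and read on 8 one-colour Agilent mouse arrays. The deposited scanner files hold intensity per spot, background-subtracted by the authors; per the file headers this was done with Feature Extraction 10.7.3.1 and mm9 probe positions, while the submitters' processing notes name version 9.1 and limma. The authors' deposited value table holds log2 values with column medians of 6.36 to 6.40, used as an alternative; its offset is not given in the sources used here.

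Here outlier spots and controls were left out, repeated spots averaged, and log2 signals scaled to the 75th percentile of the array. Levels below background were set to the lowest level well above it in that array before a fold was taken. Pairs of arrays were called at 2-fold without a test, and reading errors come from the scanner's error model. Classes of arrays were fitted with limma 3.58.1 in R 4.3.3 over all genes, well above background on at least 3 of 8 arrays (tissue) or 2 of 4 (gate), and the scripts were tested on simulated data. Named members are the 4 with the largest difference each way in each pair, the 4 with the smallest p each way in each fit, the member with the widest range in each family, those detected on 1 array alone, and Rax as a check; other names were chosen after their values were seen. Members, lists and tests were chosen with earlier results of these data known. Alternatives were other scalings, the deposited values, normexp with offset 50, other detection rules, the mean of all probes and leaving out each array. The number of arrays limits the precision. Some members are counted but not reported here by name or shown in the figures. Ranges with levels below background raised, and those over genes detected on all arrays, were chosen after seeing the data.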

Additional observations from a re-analysis of the deposited data

Results flagged for a closer look

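In 5 cases the 2 comparisons of the same kind ran in opposite directions, each past 2-fold. Every side is a difference between 1 pair of arrays, so the opposition was not tested. Kcnc2 differed between RAX-positive and RAX-negative cells by 3.35 log2 after activin and by -1.15 after SAG. It kept both calls under 4 of 6 alternative settings. Kcnj9 differed by 2.18 after activin, a lower bound, and by -1.55 after SAG, also kept under 4 of 6. Between activin and SAG, Kcnj9 was higher after activin by 1.14 in RAX-positive cells and lower in RAX-negative cells by a difference of -2.58, a bound since the activin array was not well above background, kept under 2 of 6. Kcnn1, an SK channel, differed between RAX-positive and RAX-negative cells by 1.04 after activin, a lower bound, and by -1.11 after SAG, and Kcnf1, a silent subunit, between activin and SAG by 1.23 in RAX-positive and by -1.02 in RAX-negative cells. These 2 lie near the 2-fold limit and kept both calls under 1 of 6 alternatives each. Members higher after activin and lower after SAG by gate were 3 of 68 (4.4%) against 1.43% of all genes, and those higher in RAX-positive and lower in RAX-negative cells by factor were 2 of 72 (2.8%) against 1.42%.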

How the results depend on the processing

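No paired analysis was possible because each group is 1 array and carries no replicate number in the labels. All 280 recomputed values of named members in pairs of arrays kept their direction and 265 kept their call, with 46 of 56 kept under normexp. Counts moved more. In the gate comparison after activin, 13 members higher became 6 with median scaling, 8 with quantile scaling, 7 with the authors' values, 2 with normexp and 6 when both arrays had to be well above background, and 8 lower became 15 with median scaling and 5 with normexp. After SAG, 17 lower became 11 with the authors' values, 6 with normexp and 11 with both arrays. For activin against SAG in RAX-positive cells, 23 higher became 14 with quantile scaling, 8, 4 and 11 with the authors' values, normexp and both arrays, and 15 lower became 9 with normexp and 9 with the mean of all probes. In RAX-negative cells 14 higher became 9 with normexp, and 23 lower became 14 with normexp and 13 with both arrays. Eye against cortex had 9, 10 and 8 higher with median scaling, the authors' values and normexp. Diencephalon/hypothalamus against cortex had 15 higher and 6 lower with normexp, and eye against diencephalon/hypothalamus 6 higher and 15 lower, with 9 higher by the authors' values. By gate in both comparisons, members higher became 1 with median scaling, the authors' values or both arrays and 0 with normexp, and members lower 4 with median scaling and 1 with normexp or both arrays. By factor in both, members higher became 3 with normexp. These settings for both comparisons were chosen after seeing the data. Of all genes called after activin by gate, 63.6% were higher, against 31.6% with median scaling and 44.0% with the authors' values; in eye against cortex 61.6% became 26.4% with median scaling. In limma, members higher in tissue numbered 1 with normexp and 1 with slide 1 alone and members lower 1 with quantile scaling, the authors' values or normexp. Leaving out 1 array gave 0 to 3 higher and 0 to 3 lower. For the gate, median scaling gave 2 lower. Causes of these shifts were not tested. On some array 42 members were below background.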
